A study of Mus musculus with 6 samples.

Results

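The genes described here are 32 genes of sterol and fatty acid synthesis, measured in heads of mouse embryos with and without Arid3b, a transcriptional regulator of the ARID family of AT-rich DNA binders. They were chosen by name: 20 genes of the sterol pathway (19 enzymes and the sterol transfer protein Stard4), 7 enzymes of fatty acid synthesis, and 5 regulators of the SREBP transcription factors. Probes were assigned through the RefSeq accession printed for each probe, which gave 46 probes for the 32 genes out of 20021 genes named on the array. All 32 passed the filter on dim probes, with 45 of their 46 probes, and the probe used for each was well above background on all 6 arrays.

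The 2 groups were Arid3b-null embryos and wild type embryos, both at embryonic day 9.5, with 3 arrays each. Each array carried total RNA pooled from the heads of 4 embryos, dissected with the first branchial arch, and labelled with Cy3 on a one-colour Agilent array. The labels say neither how the null allele was made nor whether the pools of a group came from separate litters. A p-value therefore reflects only how far these pools differ, which may be technical. Every value is log2 of the background-subtracted signal minus the 75th percentile of its array, so that 0 is the level of a spot at that percentile. Differences are Arid3b-null minus wild type on that log2 scale, ± the standard error from limma, with p-values adjusted by the Benjamini-Hochberg method over 14906 genes and called under 0.05.

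Cells build cholesterol from acetyl-CoA through mevalonate and the isoprenoids to squalene, which is closed into a sterol ring and then trimmed, reduced and rearranged. Fatty acids grow from the same acetyl-CoA. Genes of both pathways are classical targets of the SREBP factors: when membrane sterol is low, Scap carries the SREBP precursors from the endoplasmic reticulum to the Golgi, where they are cut and freed to enter the nucleus, and when sterol is plentiful the Insig proteins hold Scap back. Cholesterol also modifies hedgehog proteins, which pattern the embryonic head and face.

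The share of spots well above background ran between 67.9% and 70.3% over the arrays, and no spot was saturated. Each slide held the Arid3b-null array and the wild type array of 1 replicate number, with the null array always in position 2, and the effects of position and of genotype cannot be told apart. Arid3b itself read 1.27, 1.06 and 1.44 on the Arid3b-null arrays, against 1.98, 2.26 and 3.09 on the wild type arrays. It was lower on every null array, at 43.9% of the wild type signal (log2 difference -1.19 ± 0.29, adjusted p of 0.0265). The labels do not place this probe inside or outside the deleted part of Arid3b; outside it, the level would be no check of genotype.

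Most of the pathway was lower in Arid3b-null heads. Of the 32 genes, 17 fell, 1 rose and 14 did not pass the test; across all genes tested, 23.5% were called, 11.2% lower and 12.3% higher. The null arrays all lay below the wild type arrays in 22 of the 32 genes and all above them in 2, beside 21.8% and 20.6% of all genes tested. In the sterol list 12 of 20 genes fell and none rose at the adjusted threshold. All 20 had a difference below 0, beside 7934 of the 14906 genes tested. Among the fatty acid genes 4 of 7 fell and none passed the test upward. Among the SREBP regulators 1 of 5 fell and 1 rose. With the slide as a block 16 of the 32 genes were lower and 1 higher, beside 11.8% and 12.9% of all genes; Scd2 was the call lost. The median difference was -0.82 for the sterol genes, -0.45 for the fatty acid genes and -0.35 for the regulators, beside -0.04 for all genes tested. The fatty acid and regulator medians depended on the scaling and were -0.29 and -0.21 with normexp, where the sterol median was -0.69. In bulk RNA, fewer cells that express these genes and less RNA per cell cannot be told apart.

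**Figure D1:**
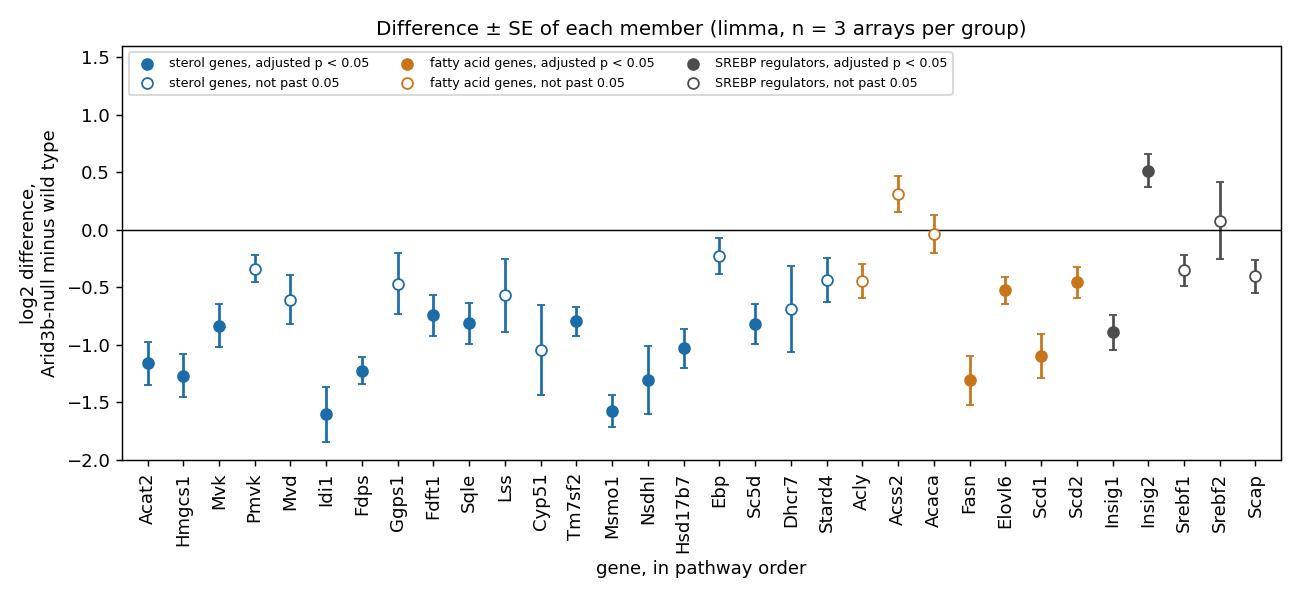
Log2 difference, Arid3b-null minus wild type, with its standard error (bars) for each of the 32 genes in pathway order, with sterol genes in blue, fatty acid genes in orange and SREBP regulators in grey. Filled points passed an adjusted p of 0.05 in limma with n = 3 arrays per group. All 20 sterol genes lie below 0, and Insig2 is the filled point above it.

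Of the 8 genes between acetyl-CoA and the isoprenoids, 5 fell. Idi1, the isomerase that makes the reactive isoprene unit, read 0.50, 0.73 and 0.19 on the Arid3b-null arrays, against 2.41, 2.19 and 1.62 on the wild type arrays. The groups did not overlap, and the null signal was 32.9% of the wild type signal (log2 difference -1.60 ± 0.24, adjusted p of 0.00536), the 115th largest fall among all genes tested. Hmgcs1, the cytosolic HMG-CoA synthase, read 2.87, 3.11 and 2.74 on the Arid3b-null arrays, against 4.44, 4.18 and 3.90 on the wild type arrays. It too was lower on every null array, 2.41-fold (log2 difference -1.27 ± 0.18, adjusted p of 0.00477).

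Fdps, the synthase that makes farnesyl diphosphate for sterols and protein prenylation, had the smallest wild type spread of the 32 genes (SD 0.0065, n = 3). It read 2.74, 2.72 and 2.67 on the Arid3b-null arrays, against 3.93, 3.93 and 3.94 on the wild type arrays. That is a 2.34-fold fall (log2 difference -1.22 ± 0.12, adjusted p of 0.00142), with -1.19, -1.21 and -1.27 within slides 1, 2 and 3. Acat2, the cytosolic thiolase that joins acetyl-CoA units at the head of the pathway, read -2.27, -2.17 and -2.52 on the Arid3b-null arrays, against -1.32, -1.33 and -0.83 on the wild type arrays, and fell by 1.16 ± 0.19 on the log2 scale (adjusted p of 0.00679).

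The kinases and the decarboxylase between mevalonate and isopentenyl diphosphate had smaller differences. Mvk, mevalonate kinase, read 2.32, 2.59 and 2.39 on the Arid3b-null arrays, against 3.50, 3.39 and 2.91 on the wild type arrays, and fell by 0.83 ± 0.19 (adjusted p of 0.0215). Its other probe fell by 0.73, with an adjusted p of 0.0242 among single probes. Pmvk and Mvd, which carry out the next 2 steps, lay lower on every null array but did not pass the test, at -0.34 ± 0.12 and -0.61 ± 0.22 (adjusted p of 0.0860 and 0.0855). With array weights both passed (0.0399 and 0.0235), and Pmvk also with an intensity trend (0.0474). The Pmvk difference was -0.20 after quantile normalization (0.300) and -0.16 with normexp (0.351). Ggps1, which draws farnesyl diphosphate off towards protein prenylation, overlapped between the groups at -0.47 ± 0.27 (adjusted p of 0.246), with a 95% interval from -1.10 to 0.16. Its difference was -0.17 without wild type array 3 (adjusted p of 0.424) and -0.12 with array weights (0.589).

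From squalene on, 7 of 11 genes fell and the other 4 had differences below 0. Msmo1 is the oxidase that begins removal of the methyl groups at carbon 4 of the sterol ring. It read 1.10, 1.09 and 1.06 on the Arid3b-null arrays, against 2.86, 2.58 and 2.54 on the wild type arrays. The null arrays had an SD of 0.019 (n = 3) and all lay below the wild type arrays, at 33.6% of their signal (log2 difference -1.57 ± 0.14, adjusted p of 0.00107). Nsdhl and Hsd17b7 complete the same demethylation. Nsdhl, a sterol dehydrogenase, read -1.94, -2.36 and -1.67 on the Arid3b-null arrays, against -1.09, -0.87 and -0.09 on the wild type arrays, and fell by 1.31 ± 0.30 (adjusted p of 0.0215). Its second probe fell by 1.35 ± 0.15. Hsd17b7, the ketosterol reductase of the complex, read -2.32, -2.09 and -1.84 on the Arid3b-null arrays, against -1.21, -0.99 and -0.96 on the wild type arrays. It fell by 1.03 ± 0.17 (adjusted p of 0.00684), and its second probe by 1.02 ± 0.22. Msmo1, Nsdhl and Hsd17b7 were thus all lower on every null array.

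The enzymes that make and oxidise squalene, a sterol reductase and a late desaturase also fell. Fdft1, squalene synthase and the first enzyme committed to sterols, read 0.08, 0.02 and 0.25 on the Arid3b-null arrays, against 0.65, 0.74 and 1.19 on the wild type arrays, and fell by 0.74 ± 0.18 (adjusted p of 0.0262). Sqle, squalene epoxidase, read 2.30, 2.12 and 1.91 on the Arid3b-null arrays, against 3.102, 3.03 and 2.63 on the wild type arrays, and fell by 0.81 ± 0.18 (adjusted p of 0.0204). In both the lowest wild type array stood above the highest null array. Tm7sf2, the reductase, read 0.58, 0.68 and 0.64 on the Arid3b-null arrays, against 1.53, 1.38 and 1.38 on the wild type arrays; its fall of 0.79 ± 0.12 (adjusted p of 0.00603) was large beside a spread of 0.05 in null and 0.09 in wild type arrays (SD, n = 3 each). Sc5d, the desaturase, read -1.24, -0.97 and -1.35 on the Arid3b-null arrays, against -0.16, -0.33 and -0.62 on the wild type arrays, and fell by 0.82 ± 0.18 (adjusted p of 0.0178).

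The 5 sterol genes left did not pass the test. Cyp51, the lanosterol demethylase, read -2.62, -2.12 and -2.15 on the Arid3b-null arrays, against -0.66, -0.92 and -2.19 on the wild type arrays. Wild type array 3 sat among the null arrays, and the difference of -1.04 ± 0.39 missed the threshold (adjusted p of 0.0995); without that array it was -1.51 (adjusted p of 0.00384). Dhcr7, the reductase that ends one branch of cholesterol synthesis, read -0.74, -1.16 and -0.51 on the Arid3b-null arrays, against -0.58, -0.51 and 0.74 on the wild type arrays. Here wild type array 3 stood above the rest, and the groups overlapped (log2 difference -0.69 ± 0.37, adjusted p of 0.224); without that array the difference was -0.26 (adjusted p of 0.360), and with array weights -0.35 (0.232). Lss, which closes the ring to lanosterol, gave -0.57 ± 0.32 (adjusted p of 0.243), with -0.26 without wild type array 3 (0.447) and -0.86 without wild type array 1 (0.0931). Ebp, a sterol isomerase, had the smallest difference of the sterol genes, at -0.22 ± 0.16, with a 95% interval from -0.59 to 0.14. It was -0.092 after quantile normalization, -0.10 with normexp and -0.15 without wild type array 1. Stard4, which ferries sterol between membranes, gave -0.43 ± 0.19 (adjusted p of 0.146), and -0.58 without wild type array 3 (adjusted p of 0.0412).

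**Figure D2:**
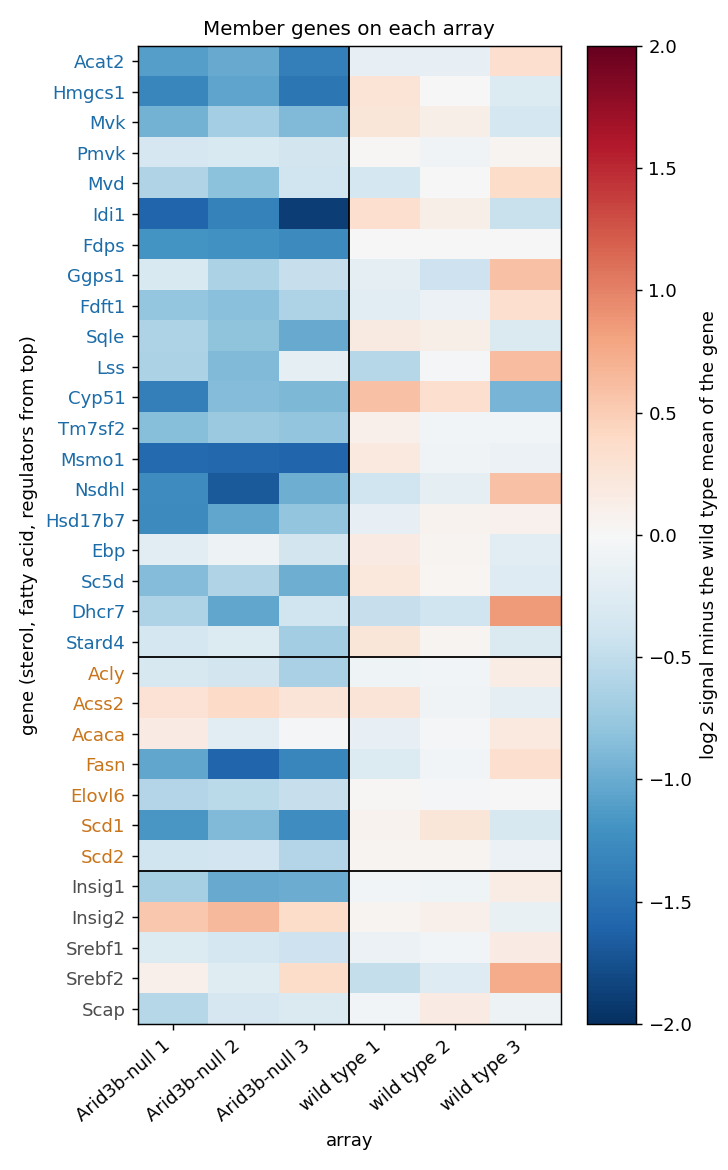
Each cell is the log2 signal of a gene on an array minus that gene's wild type mean, with the 3 Arid3b-null arrays left of the 3 wild type arrays and the sterol genes, fatty acid genes and regulators from top to bottom. Blue rows on the left are lower in Arid3b-null heads, led by Idi1 and Msmo1, and wild type array 3 differs from the other wild type arrays in both directions, as at Cyp51 and Dhcr7.

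The wild type arrays did not vary as a block. Of the 20 sterol genes, wild type array 3 was the highest of its group in 10 and the lowest in the other 10. Among null arrays, array 2 was the highest in 10 genes and array 3 the lowest in 10. The median of the sterol list, taken against the wild type mean of each gene, was -0.86, -0.85 and -0.83 on the Arid3b-null arrays; the wild type arrays lie near 0 on this scale by construction. Without wild type array 3 the median difference of the list was -0.95. Within slides 1, 2 and 3 the median sterol difference was -0.90, -0.83 and -0.84. The genes up to the isoprenoids had medians of -1.06, -0.83 and -1.11 within the slides, and those from squalene on had -0.85, -0.85 and -0.81.

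**Figure D3:**
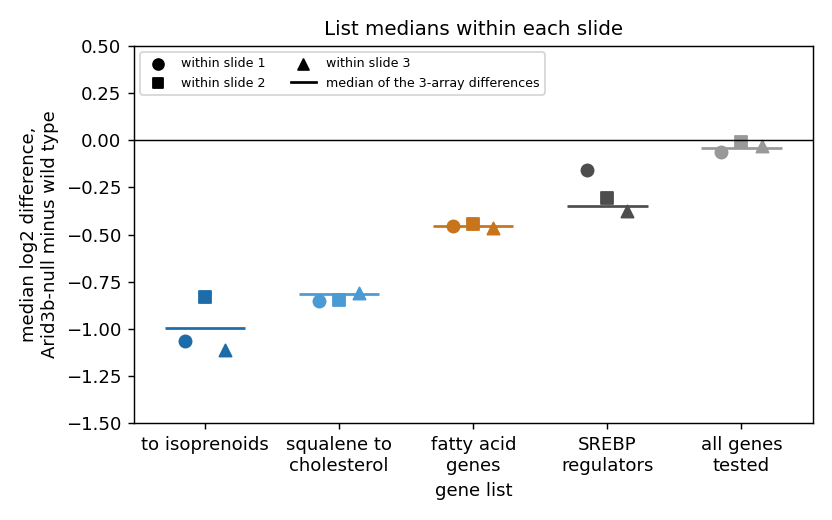
Median log2 difference, Arid3b-null minus wild type, within each slide (symbols) and from all 6 arrays (lines) for genes up to the isoprenoids, genes from squalene to cholesterol, fatty acid genes, SREBP regulators and all genes tested. The medians of the sterol lists lie between -1.11 and -0.81 on every slide, and those of all genes tested between -0.06 and -0.01.

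Of the 12 sterol calls, 7 held under each of the 16 alternative settings at the same threshold: Acat2, Hmgcs1, Idi1, Fdps, Tm7sf2, Msmo1 and Hsd17b7. The other 5 kept their sign and lost the threshold under some of them. Mvk had an adjusted p of 0.0888 and 0.0769 without Arid3b-null arrays 1 and 3, and 0.0638 and 0.0665 without wild type arrays 1 and 2. Fdft1 had 0.0970, 0.0879 and 0.0622 without Arid3b-null arrays 1, 2 and 3, and 0.0532 without wild type array 2. Sqle had 0.0645 and 0.0746 without Arid3b-null arrays 2 and 3, and 0.0634 and 0.0642 without wild type arrays 1 and 2. Nsdhl had 0.0715 and 0.0690 without Arid3b-null arrays 1 and 2. Sc5d had 0.0745 and 0.0683 without Arid3b-null arrays 1 and 3, and 0.0555 and 0.0551 without wild type arrays 1 and 2. Without the filter on dim probes, Mvk, Fdft1 and Nsdhl also missed the threshold (adjusted p of 0.05002, 0.0586 and 0.0506).

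The DNA before the start sites is shown for the 3 sterol genes with the largest falls, Idi1, Msmo1 and Nsdhl, and for Insig1, Srebf2 and Fasn. Of the last 3, Insig1 and Fasn also fell and Srebf2 did not pass the test. Whether the promoter words bear on the falls was not tested. SREBP factors are weak activators alone and act at promoters beside NF-Y, which binds CCAAT, and Sp1, which binds GGGCGG. Those words and CACNCCAC, a core of the sterol regulatory element, were searched on both strands of the 250 bases before each RefSeq start (build GRCm38.p6), and matches are in capitals. No 2 different motifs overlapped in these windows. The windows are chr13:8885356-8885605 (plus strand) for Idi1, chr8:64733579-64733828 (minus strand) for Msmo1, chrX:72918271-72918520 (plus strand) for Nsdhl, chr5:28071162-28071411 (plus strand) for Insig1, chr15:82147019-82147268 (plus strand) for Srebf2 and chr11:120824548-120824797 (minus strand) for Fasn.
Idi1: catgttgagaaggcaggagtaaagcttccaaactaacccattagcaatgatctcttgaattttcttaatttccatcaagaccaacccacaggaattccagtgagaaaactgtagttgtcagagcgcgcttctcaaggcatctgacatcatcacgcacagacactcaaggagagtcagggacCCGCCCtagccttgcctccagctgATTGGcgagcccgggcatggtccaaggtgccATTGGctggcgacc
Msmo1: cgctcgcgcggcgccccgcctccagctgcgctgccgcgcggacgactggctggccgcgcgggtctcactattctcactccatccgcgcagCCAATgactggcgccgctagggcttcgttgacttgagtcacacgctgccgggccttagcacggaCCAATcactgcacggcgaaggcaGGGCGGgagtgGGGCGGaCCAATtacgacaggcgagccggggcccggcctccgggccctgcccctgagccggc
Nsdhl: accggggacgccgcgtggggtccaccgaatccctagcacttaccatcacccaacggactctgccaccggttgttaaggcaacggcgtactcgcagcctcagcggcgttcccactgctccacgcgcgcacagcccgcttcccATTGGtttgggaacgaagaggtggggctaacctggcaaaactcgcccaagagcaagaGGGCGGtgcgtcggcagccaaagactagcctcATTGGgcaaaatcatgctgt
Insig1: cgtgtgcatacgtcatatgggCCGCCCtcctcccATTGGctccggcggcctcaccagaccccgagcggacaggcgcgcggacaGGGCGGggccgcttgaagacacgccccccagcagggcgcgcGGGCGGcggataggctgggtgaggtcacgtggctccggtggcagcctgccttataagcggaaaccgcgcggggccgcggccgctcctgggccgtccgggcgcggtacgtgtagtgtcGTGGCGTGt
Srebf2: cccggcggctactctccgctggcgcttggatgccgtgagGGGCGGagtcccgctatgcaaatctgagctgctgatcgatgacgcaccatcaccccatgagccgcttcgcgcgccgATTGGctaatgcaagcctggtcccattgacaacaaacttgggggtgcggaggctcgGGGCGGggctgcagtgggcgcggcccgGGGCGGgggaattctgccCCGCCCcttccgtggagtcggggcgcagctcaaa
Fasn: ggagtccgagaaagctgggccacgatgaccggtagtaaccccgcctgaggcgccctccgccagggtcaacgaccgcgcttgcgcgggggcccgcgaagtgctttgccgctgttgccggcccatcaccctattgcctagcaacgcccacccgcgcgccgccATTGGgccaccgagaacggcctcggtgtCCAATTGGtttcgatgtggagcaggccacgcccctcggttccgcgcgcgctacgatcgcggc

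Msmo1 held 3 CCAAT words, with 2 GGGCGG words between the second and the third. Idi1 held 2 CCAAT words and 1 GGGCGG, and Nsdhl likewise held 2 and 1. Fasn held 3 CCAAT words, a pair of them overlapping on opposite strands, and no GGGCGG, and Srebf2 held 1 CCAAT and 4 GGGCGG. Insig1 alone of these 6 held CACNCCAC, on the minus strand, ending 2 bases before the start. Only exact words were searched, so a window without a match is not shown to lack the element. Windows were matched by symbol for 26 of the 32 genes, all but Fdps, Fdft1, Sqle, Stard4, Scd1 and Scd2. CCAAT stood before 15 of 16 sterol genes, 93.8%, beside 37.5% of the 27025 genes of the table, which include noncoding genes, and Acat2 was the sterol gene without it. GGGCGG stood before 14 of 16 sterol genes, 87.5%, beside 35.4% of all genes. CACNCCAC stood before 2 sterol genes, Acat2 and Hmgcs1, 12.5% beside 6.05%. Among the fatty acid genes 2 of 5 held CCAAT and 2 held GGGCGG, and none held CACNCCAC. Among the regulators 4 of 5 held CCAAT, 5 held GGGCGG and 1 held CACNCCAC, each counted in any window of a gene. Counted by window, CCAAT stood in 5 of 10 regulator windows and 15 of 19 sterol windows. GGGCGG stood in 7 of 10 and 15 of 19, and CACNCCAC in 1 of 10 and 2 of 19. Some genes have several windows and so more chances of a match, and base composition was not matched between the sets. A match is a run of letters and not a shown binding site. Ebp and Lss, which did not pass the test, held CCAAT, and Acat2, which fell, did not. Whether the word goes with the falls was not tested.

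**Figure D4:**
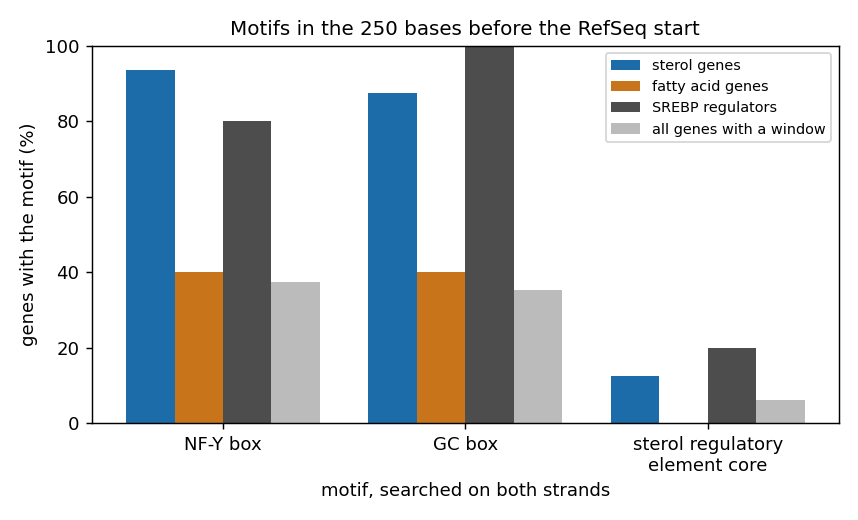
Share of genes, in percent, with each motif in at least 1 window of the 250 bases before the RefSeq start, for 16 sterol genes, 5 fatty acid genes, 5 SREBP regulators and the 27025 genes of the table. The NF-Y box stands before 93.8% of the sterol genes and 37.5% of all genes.

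Of the 7 fatty acid genes, Fasn, Scd1, Elovl6 and Scd2 fell, and Acly, Acaca and Acss2 did not pass the test. Differences between these genes were not tested, and Acly and Scd2 lay close to each other on both sides of the threshold. Fasn, the synthase that assembles palmitate, read -1.71, -2.26 and -1.98 on the Arid3b-null arrays, against -0.95, -0.73 and -0.35 on the wild type arrays. Every null array was lower, at 40.4% of the wild type signal (log2 difference -1.31 ± 0.21, adjusted p of 0.00684). Scd1, a desaturase that makes oleate, read -1.34, -1.05 and -1.42 on the Arid3b-null arrays, against -0.10, 0.07 and -0.49 on the wild type arrays, and fell by 1.10 ± 0.19 (adjusted p of 0.00863). Both calls held under all 16 alternatives.

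Smaller falls were seen in the elongase and the second desaturase. Elovl6, which lengthens palmitate, read 1.46, 1.51 and 1.59 on the Arid3b-null arrays, against 2.06, 2.02 and 2.04 on the wild type arrays, and fell by 0.52 ± 0.12 (adjusted p of 0.0215). Scd2, the desaturase prominent in embryonic and neural tissue of the mouse, read 4.57, 4.59 and 4.39 on the Arid3b-null arrays, against 5.03, 5.03 and 4.85 on the wild type arrays. The groups lay apart, and the fall of 0.45 ± 0.13 passed the test narrowly (adjusted p of 0.0480, and 0.0543 with the slide as a block). After quantile normalization its difference was -0.27 (adjusted p of 0.150), and after normexp -0.29 (0.107), both more than 1.5 times smaller. Elovl6 lost the threshold without Arid3b-null arrays 1, 2 and 3 (adjusted p of 0.102, 0.0783 and 0.0525), without wild type arrays 1 and 2 (0.0634 and 0.0702) and in the deposited value table (0.0715). Scd2 lost it without Arid3b-null arrays 1, 2 and 3 (0.131, 0.106 and 0.139), without wild type arrays 1 and 2 (0.125 and 0.147) and with dim probes kept (0.0942).

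Acly, which makes cytosolic acetyl-CoA from citrate, read 4.37, 4.32 and 4.04 on the Arid3b-null arrays, against 4.59, 4.63 and 4.84 on the wild type arrays. It was lower on each null array but did not pass the test (log2 difference -0.44 ± 0.15, adjusted p of 0.0750, and 0.0468 with an intensity trend), and its second, dimmer probe gave -0.0063 ± 0.36. The Acly difference was -0.27 both after quantile normalization and with normexp (0.302 each), -0.23 as the mean of its probes (0.521) and -0.055 in the deposited value table (0.936). Acaca, the carboxylase that commits acetyl-CoA to fatty acids, read 3.51, 3.13 and 3.33 on the Arid3b-null arrays, against 3.18, 3.32 and 3.56 on the wild type arrays. The groups overlapped (log2 difference -0.034 ± 0.16, 95% interval from -0.42 to 0.35), and the sign turned after quantile normalization (0.14), normexp (0.070) and in the deposited value table (0.14). Acss2, which makes acetyl-CoA from acetate, read -1.02, -0.93 and -1.05 on the Arid3b-null arrays, against -1.05, -1.38 and -1.496 on the wild type arrays, at 0.31 ± 0.16 (adjusted p of 0.193), and 0.18 with normexp (0.360). The fatty acid median was -0.46, -0.44 and -0.46 within slides 1, 2 and 3, but -0.27 after quantile normalization, -0.29 with normexp and -0.25 in the deposited value table, which holds 6 of the 7 genes. Leaving out any single array other than wild type array 3 left 2 of the 4 calls, Fasn and Scd1.

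Among the regulators the 2 Insig genes, whose proteins retain Scap in the endoplasmic reticulum, moved in opposite directions. Insig1, itself a classical SREBP target, read -2.26, -2.61 and -2.59 on the Arid3b-null arrays, against -1.65, -1.68 and -1.45 on the wild type arrays. It was lower on every null array, at 53.9% of the wild type signal (log2 difference -0.89 ± 0.15, adjusted p of 0.00860), and was called under all 16 alternatives. Insig2 read -0.23, -0.13 and -0.41 on the Arid3b-null arrays, against -0.72, -0.68 and -0.93 on the wild type arrays. It was higher on every null array, 1.43-fold (log2 difference 0.52 ± 0.14, adjusted p of 0.0408), with 0.49, 0.55 and 0.52 within slides 1, 2 and 3. A second Insig2 probe, designed on another transcript, differed by 0.69 ± 0.19, with an adjusted p of 0.0445 among single probes, where the first probe had 0.0593.

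The rise of Insig2 lay close to the threshold. Its adjusted p was 0.141, 0.135 and 0.0635 without Arid3b-null arrays 1, 2 and 3, and 0.0839, 0.0824 and 0.0521 without wild type arrays 1, 2 and 3. It was also above 0.05 with median centring (0.0518), with normexp (0.0770), in the deposited value table (0.0726) and with dim probes kept (0.0832). The difference was between 0.40 and 0.61 over its 16 alternatives.

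The genes of the SREBP factors and their escort did not pass the test. Srebf1, which encodes the factor tied mainly to fatty acid genes, read -2.41, -2.50 and -2.56 on the Arid3b-null arrays, against -2.25, -2.19 and -1.97 on the wild type arrays. The groups lay apart, with a difference of -0.35 ± 0.14 (adjusted p of 0.108). Srebf2, which encodes the factor tied mainly to sterol genes, read -0.13, -0.47 and 0.13 on the Arid3b-null arrays, against -0.72, -0.50 and 0.51 on the wild type arrays. Its groups overlapped, with wild type arrays both below and above the null arrays (log2 difference 0.08 ± 0.33, 95% interval from -0.71 to 0.87), and its dimmer second probe gave -0.28 ± 0.21. Scap read 2.23, 2.46 and 2.51 on the Arid3b-null arrays, against 2.75, 2.96 and 2.69 on the wild type arrays, at -0.40 ± 0.15 (adjusted p of 0.0888, and 0.0104 with array weights, where the difference was -0.56). After normexp its difference was -0.21 (adjusted p of 0.266), and after quantile normalization -0.28 (0.196). The RNA of these genes does not report how much SREBP is cut and enters the nucleus.

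**Figure D5:**
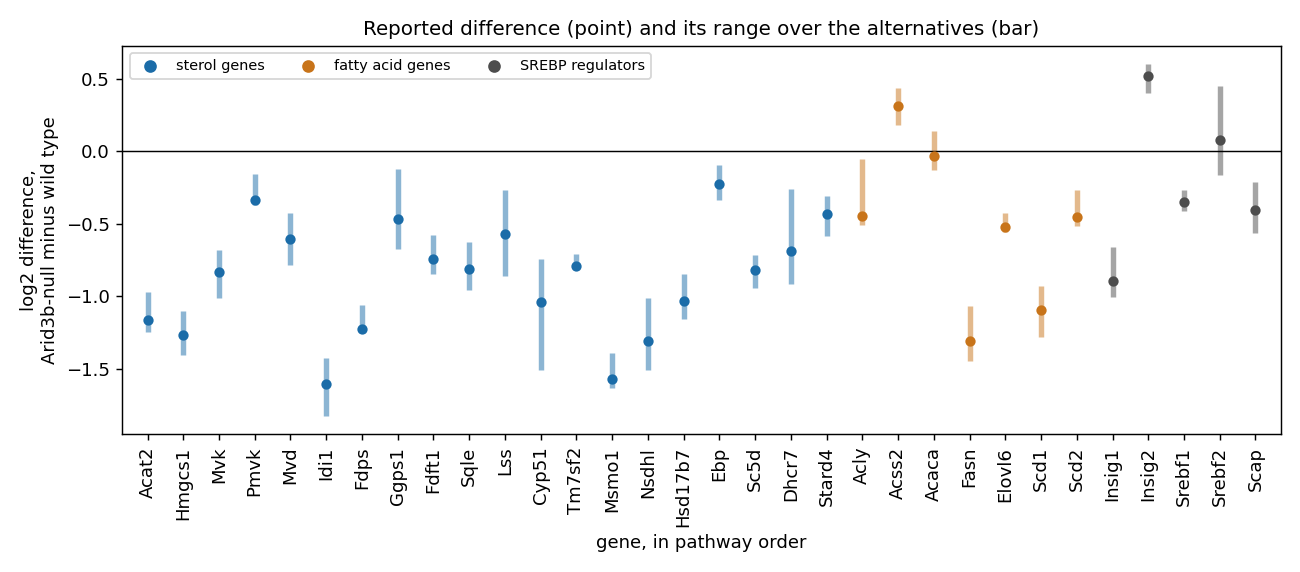
Reported log2 difference, Arid3b-null minus wild type, of each gene (points) and its lowest to highest value over the alternative settings (bars), in pathway order. The bars of all 20 sterol genes stay below 0, and those of Acaca and Srebf2 cross it.

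Of 15 genes that cut, carry, partner or degrade SREBP factors and their regulators, 2 fell and 1 rose, shares near the 11.2% and 12.3% called over all genes. Mbtps2, the protease that makes the second cut of SREBP, rose by 1.04 ± 0.15 (adjusted p of 0.00477), and Nfyc, a subunit of NF-Y, fell by 0.91 ± 0.13 (adjusted p of 0.00467). Sar1a, a GTPase of the vesicles that leave the endoplasmic reticulum, fell by 0.47 ± 0.13 (adjusted p of 0.0440, and 0.0554 with the slide as a block). The other NF-Y subunits, Nfya and Nfyb, gave -0.049 and -0.39 and did not pass the test.

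Sterol uptake and handling held more rises than falls, with 6 of 15 genes higher and 2 lower, beside 12.3% higher and 11.2% lower over all genes. The list median was 0.69 (0.53, 0.37 and 0.37 within slides 1, 2 and 3). Vldlr, a receptor for apolipoprotein E, read 1.96, 2.09 and 1.79 on the Arid3b-null arrays, against -0.87, -0.63 and -1.34 on the wild type arrays, 7.43-fold higher (log2 difference 2.89 ± 0.20, adjusted p of 6.87e-04). Apoe, the ligand, was 2.82-fold higher (log2 difference 1.497 ± 0.12), and Abcg1, a sterol exporter, was 1.99-fold higher (log2 difference 0.99 ± 0.13). Of 10 genes that use isoprenoids 2 fell and none passed upward at the adjusted threshold, beside the same shares of all genes. The 2 that fell were Pdss1 and Pdss2, the subunits that make the tail of coenzyme Q, at -1.18 ± 0.15 and -0.96 ± 0.21. The prenyltransferase subunits Fnta and Fntb gave -0.16 and 0.11 and did not pass the test.

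Further lipid lists had 1 or 2 calls in each direction, beside 11.2% lower and 12.3% higher over all genes, and nothing is read from their counts. Of 20 genes of fatty acid supply, elongation, desaturation and activation 2 fell and 1 rose: Me1, malic enzyme (-0.92 ± 0.19), and Elovl2, an elongase of long polyunsaturated chains (-0.89 ± 0.18), fell, and Elovl7, another elongase, rose (0.78 ± 0.15). Of 12 glycerolipid genes 1 fell and 2 rose: Pcyt2 of phosphatidylethanolamine synthesis fell (-0.80 ± 0.16), and Lpin1 and Agpat2 of the route to triglyceride rose (0.60 ± 0.14 and 0.67 ± 0.20, the last with 0.0527 as adjusted p with the slide as a block). Of 15 genes of fatty acid oxidation 2 fell and 1 rose: Cpt1a, the carnitine transferase of fatty acid entry into mitochondria (-1.13 ± 0.26), and Hadhb (-0.60 ± 0.14) fell, and Cpt1c, its neuronal relative, rose (2.001 ± 0.28).

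Markers of the cells in the head were examined beside these values. Of 5 neural tube markers 3 fell, with Fabp7 at -1.56 ± 0.21, Nes at -0.93 ± 0.14 and Sox1 at -0.68 ± 0.13. The other 2 overlapped between the groups, with Sox2 at -0.12 ± 0.14 and Pax6 at 0.23 ± 0.40. All 5 passed the filter. The summed signal of the 5, in units of the 75th percentile of the array, was mostly Nes. It was 12.6 to 13.3 on the Arid3b-null arrays, against 21.5 to 24.9 on the wild type arrays. The part of these markers in the fall of the sterol genes was not tested. Cranial mesenchyme markers summed to 37.5 to 40.6 on the Arid3b-null arrays, against 34.1 to 39.9 on the wild type arrays, most of it Col1a2. Of these 5 markers 1 was lower, Prrx1 at -0.85 ± 0.17 (adjusted p of 0.0129). Surface ectoderm and endothelium markers had no call in 5 genes each, and erythroid markers had 1 fall in 6. Over all genes 11.2% were called lower and 12.3% higher, and nothing is read from the counts of these lists. Of 8 markers of yolk sac and liver, Alb, Ttr, Apoa1 and Apoa4 were not well above background on any array and Afp did not pass the filter, while Rbp4 rose (1.72 ± 0.20). Apob and Amn did not pass the test and had opposite signs, at -1.05 ± 0.36 and 0.49 ± 0.16. The sum of the list, most of it Rbp4, was 1.28 to 1.86 on the Arid3b-null arrays, against 0.428 to 0.598 on the wild type arrays, and its part in the result was not tested. Heart markers summed to 0.983 to 1.37 on the Arid3b-null arrays, against 0.782 to 2.15 on the wild type arrays, with no call in the 4 tested.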

How the data were processed

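The scanner files deposited by the authors hold, per the file headers, an intensity for each spot that Agilent Feature Extraction 10.7.3.1 had background-subtracted and detrended, beside raw median intensities. A deposited value table holds log2 values for 24181 probes; the labels do not say how it was scaled, and its column medians were 6.76 to 6.77.

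Spots were averaged per probe after removal of controls and outliers, and each array's 75th percentile was subtracted on the log2 scale. Of 39429 probes, 26424 had 1 gene symbol through their RefSeq accession, 0 several and 13005 none. The filter passed 26288 probes, those that every array of either group showed well above background and that had a value on 5 or more arrays; a gene was read from its brightest such probe. Groups were compared with limma 3.58.1 in R 4.3.3 and Benjamini-Hochberg adjustment. The steps were tested on simulated data. Single probes were tested in the same way over all kept probes.

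Same-numbered arrays shared a slide, per the file headers; the deviations of same-numbered arrays from their group means correlated at -0.20, 0.15 and 0.42 across genes, so the numbers are not taken to pair the pools beyond the slide. Members and gene lists were chosen with earlier results of these data known. All members are named, and up to 3 genes of each further list by smallest p; others were named after their values were seen. A short list of further sterol synthesis genes is not reported here. Promoter windows are from RefSeq tables of GRCm38.p6. Alternatives were other scalings and background corrections, other probe filters, the deposited table, other variance models, the slide block and leaving out each array. The number of arrays limits the precision.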

Additional observations from a re-analysis of the deposited data

How the results depend on the processing

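The number of arrays limits these results, and 8 of the 18 calls among the members were lost under at least 1 alternative. With replicate block (the slide as a block) 12 sterol genes, 3 fatty acid genes and 2 regulators were called, and Scd2 was the member call it changed. Leaving out 1 array at a time gave 8 to 14 sterol calls, 2 to 4 fatty acid calls and 1 regulator call each time, and 1516 (without Arid3b-null array 1) to 5199 (without wild type array 3) genes called in all beside 3506; the sterol median was then -0.95 to -0.78, the fatty acid median -0.51 to -0.39 and the regulator median -0.40 to -0.27. Over all genes 2270 were called without the filter on dim probes, 6684 with array weights and 1272 at an adjusted p under 0.01, where 7 sterol, 2 fatty acid and 1 regulator gene passed. Regulator calls were 1 with median centring, normexp, the deposited table and no filter, and fatty acid calls 2 of 6 in the deposited table, which lacks Scd2 and the sterol genes Pmvk and Ebp. The sterol median was -0.74 after quantile normalization, -0.69 with normexp and -0.86 with array weights. The fatty acid median was -0.27 after quantile normalization, -0.29 with normexp and -0.25 over those 6 genes in the deposited table, and the regulator median -0.21 with normexp. Acaca turned to 0.14 after quantile normalization and in the deposited table, 0.070 with normexp and 0.088 with array weights, and ran from -0.13 to 0.066 when 1 array was left out. Srebf2 turned to -0.10 as the mean of its probes, and ran from -0.16 (without wild type array 1) to 0.45 (without wild type array 3) when 1 array was left out. The cause was not tested.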
